A study of Mus musculus with 6 samples.

Results

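The desmosome genes examined here are 10 genes that encode the core of this cell junction, taken by symbol from the 56262 genes of the count table. They are *Dsp*, *Jup*, *Pkp1*, *Pkp3*, the desmogleins *Dsg1a*, *Dsg2* and *Dsg3*, and the desmocollins *Dsc1*, *Dsc2* and *Dsc3*. They were followed in leg muscle of mouse fetuses at embryonic day 18.5, in 3 wild-type (WT) samples and 3 samples of the genotype *SYISL* KO, in which a long noncoding RNA, *SYISL*, is knocked out. No other treatment is given for either group. Per the labels, mice of the same genotype were mated, so litter and genotype cannot be told apart here, and it is not stated whether the 3 samples of a group came from separate fetuses. *SYISL* has no symbol in the annotation used, so its own deletion was not checked. The samples held 82054811 to 102233181 counts. Levels are given as CPM, that is counts per 1000000 counts of a library scaled by the TMM method. A count of 0 would allow a level of up to 3 counts, or 0.0284 to 0.0363 CPM depending on the library, for counting error only.

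A desmosome joins neighbouring cells by clamping their intermediate filaments together. Desmogleins and desmocollins are cadherins that meet between the cells, plakoglobin (the product of *Jup*) and the plakophilins bind their tails, and desmoplakin (the product of *Dsp*) ties that plaque to keratin filaments. The junction is characteristic of stratified epithelia, above all the epidermis, and of heart muscle, where the filament is desmin. Skeletal muscle fibers are not held together by desmosomes. In the epidermis, desmoglein 3 and desmocollin 3 are richest in the basal layers, desmoglein 1, desmocollin 1 and plakophilin 1 in the upper layers, and desmoglein 2 and desmocollin 2 are the forms of simple epithelia and of the heart.

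All 10 genes were lower in KO, by 2.11-fold (*Dsc2*) to 104-fold (*Dsc1*), with a median log2 fold change of -3.63 against -0.0041 for all genes tested. A gene is called here when it changes by more than 1.5-fold and edgeR's quasi-likelihood test gives it a Benjamini-Hochberg adjusted p under 0.05. All 10 members were called lower, and 8.39% of the 22071 genes tested were called lower and 8.31% higher. For each member all 3 KO values lay under all 3 WT values, which held for 28.5% of the genes tested. No member was near the limit of detection, with at least 56 counts in every library, and all 10 passed the filter on low counts. In bulk tissue, fewer cells of a type and less RNA per cell cannot be told apart.

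Markers of cell types changed in different directions. All 13 markers of keratinocytes, the cells of the epidermis, were called lower in KO, and their summed level was 18109 to 26797 CPM across WT samples and 843 to 981 CPM across KO samples, with *Krt1* the most counted in WT. Of 8 muscle markers, 7 were called higher, with summed levels of 19396 to 21642 CPM across WT samples and 41667 to 50997 CPM across KO samples. The 6 endothelial markers summed to 663 to 695 CPM across WT samples and 763 to 801 CPM across KO samples, and the 5 fibroblast markers to 31052 to 33696 CPM across WT samples and 36497 to 37445 CPM across KO samples, neither sum changing by 1.5-fold. The 6 heart muscle markers summed to 406 to 414 CPM across WT samples and 365 to 407 CPM across KO samples. Nearly all of this was *Myl4*, with 395 to 403 CPM across WT samples and 351 to 393 CPM across KO samples. The sum thus describes *Myl4*, which was not called, rather than the list. *Myl7* was called lower and *Myh6* was called higher. *Nppa* and *Nkx2-5*, which define heart muscle, had at most 7 and 4 counts in any library. Mesothelium is another epithelium with desmosomes, and 3 of 4 tested mesothelial markers were called lower, at summed levels of 16.3 to 25.2 CPM across WT samples and 2.44 to 3.68 CPM across KO samples for the list of 5. Of the 3 called, *Krt19* is also counted in the keratin list below. *Wt1* was tested and not called, with overlapping values of 32, 51 and 33 counts in WT and 28, 30 and 17 counts in KO. *Lrrn4* was not tested and had 4 to 12 counts per library. The 4 Schwann cell markers, 1 of them called higher, summed to 68.2 to 72.1 CPM across WT samples and 95.9 to 116 CPM across KO samples, and the 4 melanocyte markers, 1 of them called higher, to 20.8 to 29.6 CPM across WT samples and 21.6 to 27.1 CPM across KO samples. The part of any of these cells in the desmosome results was not tested.

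**Figure D1:**
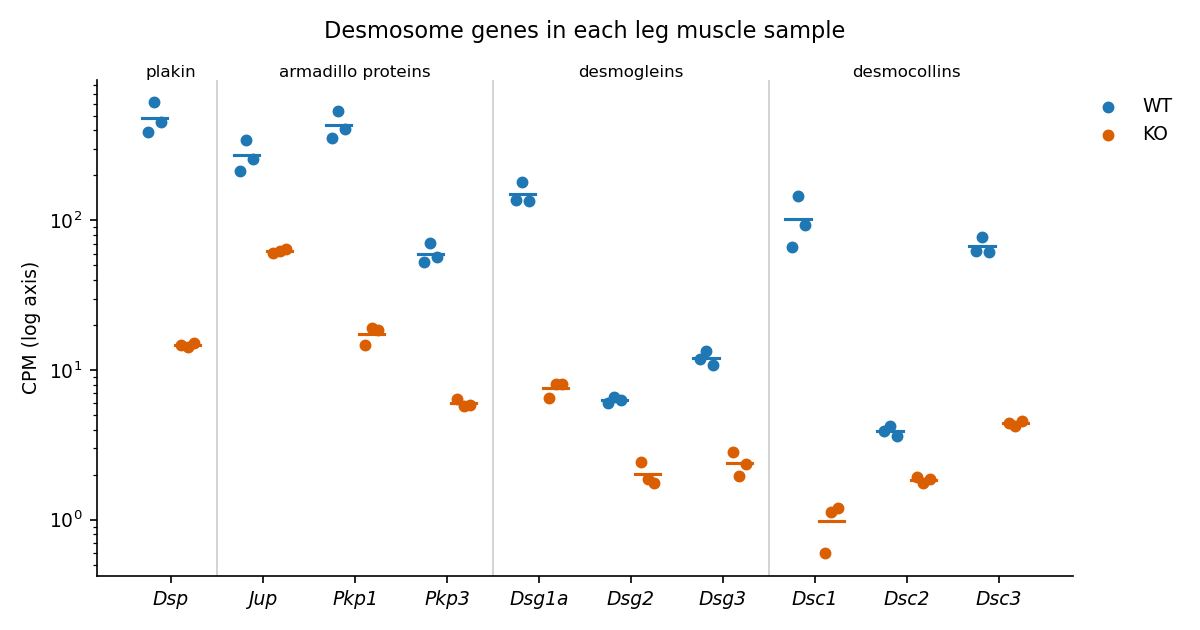
CPM of the 10 desmosome genes on a log axis in each of the 3 WT (blue) and 3 KO (orange) samples, with the group mean as a bar. Every gene has all 3 KO points under all 3 WT points, and the gap runs from 2.11-fold for *Dsc2* to 104-fold for *Dsc1*.

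*Dsp* (ENSMUSG00000054889.10, chromosome 13, 38151294 to 38198577, plus strand, mm10) encodes desmoplakin, the plakin that anchors keratin. It had 389, 614 and 452 CPM in WT replicates 1, 2 and 3 and 14.7, 14.2 and 15.1 CPM in KO replicates 1, 2 and 3. The WT samples were spread, with replicate 2 highest and replicate 1 lowest, while the KO samples were alike, at 14.7 ± 0.463 CPM (SD, n = 3). The fall was 33.0-fold (log2 fold change -5.04, standard error 0.142, edgeR adjusted p = 5.71e-08). *Gm10129*, annotated within *Dsp* on the other strand, had at most 4 counts in any library.

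*Jup* (ENSMUSG00000001552.14, chromosome 11, 100368958 to 100397763, minus strand) encodes plakoglobin, an armadillo protein that also serves in adherens junctions, those of endothelium included. It had 215, 345 and 259 CPM in WT and 60.5, 62.4 and 64.1 CPM in KO. WT replicate 2 was again highest and the KO samples were alike. The fall was 4.38-fold (log2 fold change -2.13, standard error 0.139, edgeR adjusted p = 2.87e-06). *Cdh5*, the endothelial cadherin that plakoglobin can bind, stood at 263 ± 14.9 CPM in WT samples against 295 ± 8.22 CPM in KO samples (mean ± SD, n = 3 per group), with a log2 fold change of 0.16, and was not called.

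The plakophilins *Pkp1* (ENSMUSG00000026413.12, chromosome 1, 135871395 to 135919207, minus strand) and *Pkp3* (ENSMUSG00000054065.12, chromosome 7, 141078218 to 141090510, plus strand) encode the armadillo proteins that cluster desmosomal cadherins and recruit desmoplakin. *Pkp1* had 358, 537 and 406 CPM in WT and 14.8, 19.2 and 18.4 CPM in KO, a 24.8-fold fall (log2 fold change -4.63, standard error 0.146, edgeR adjusted p = 8.78e-08). *Pkp3*, whose protein is present through all layers of the epidermis, had 52.4, 70.7 and 56.8 CPM in WT and 6.38, 5.77 and 5.82 CPM in KO, a 10.01-fold fall (log2 fold change -3.32, standard error 0.106, edgeR adjusted p = 6.40e-08). *Pkp2*, the plakophilin of heart and simple epithelia, was low throughout, with 1.39, 1.33 and 1.22 CPM in WT and 1.38, 1.52 and 1.44 CPM in KO, and these values overlapped (log2 fold change 0.14, standard error 0.112, edgeR adjusted p = 0.358). *Pkp4*, which encodes a relative found mostly at adherens junctions, had 75.6, 80.8 and 75.1 CPM in WT and 64.0, 60.8 and 61.5 CPM in KO, under the 1.5-fold threshold (log2 fold change -0.31, standard error 0.0421, edgeR adjusted p = 2.60e-04).

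The upstream sequences of *Dsp* and *Jup*, partners in the plaque that fell by unequal amounts, are shown. The cadherin members were left out of this step, and *Pkp1* and *Pkp3* had no entry in the promoter table used here. The 250 bases before the RefSeq start of each gene, from assembly GRCm38.p6, are printed 5′ to 3′ on the strand of the gene, with matches to the GC box in capitals. The windows are chr13:38151044-38151293, plus strand, for *Dsp* and chr11:100397791-100398040, minus strand, for *Jup*.
*Dsp*: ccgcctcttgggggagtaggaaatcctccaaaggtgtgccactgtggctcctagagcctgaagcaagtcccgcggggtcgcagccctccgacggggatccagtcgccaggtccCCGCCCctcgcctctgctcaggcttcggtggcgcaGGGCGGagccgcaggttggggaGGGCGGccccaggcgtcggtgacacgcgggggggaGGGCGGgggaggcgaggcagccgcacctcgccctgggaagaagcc
*Jup*: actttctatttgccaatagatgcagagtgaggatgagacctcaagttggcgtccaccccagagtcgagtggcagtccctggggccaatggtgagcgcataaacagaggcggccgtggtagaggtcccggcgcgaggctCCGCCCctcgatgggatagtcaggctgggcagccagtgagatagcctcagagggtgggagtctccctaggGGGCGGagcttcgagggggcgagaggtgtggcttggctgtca
Both windows are rich in G and C, at 72.4% for *Dsp* and 62.0% for *Jup*, against a median of 52.0% over the promoters of 27025 genes. The GC box, GGGCGG on either strand, occurred 4 times in the *Dsp* window and 2 times in the *Jup* window, and 32.7% of all promoters of this length hold at least 1 match. Neither window held the letters of an AP-1 element (TGANTCA, in 6.87% of all promoters), a Grainyhead-like element (AACNGGTT, in 1.67%), a TATA box (TATAAA, in 12.9%) or the E-box form CAGNTG (in 44.6%). No search motif overlapped another in these windows. A match in letters is a description and shows no binding.

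Levels of different genes were compared as CPM per kb of exon, which allows for gene length. In WT the order was *Pkp1* (86.3 ± 18.5 CPM per kb, SD, n = 3), *Dsp* (50.2 ± 12), *Jup* (42.4 ± 10.3), *Dsg1a* (26.4 ± 4.51), *Dsc1* (20.2 ± 7.92), *Pkp3* (16.6 ± 2.64), *Dsc3* (12.5 ± 1.65), *Dsg3* (1.72 ± 0.190), *Dsg2* (0.763 ± 0.0334) and *Dsc2* (0.743 ± 0.0556). The ranges of the WT samples overlapped between *Dsp* and *Jup*, *Dsg1a* and *Dsc1*, *Dsc1* and *Pkp3*, and *Dsg2* and *Dsc2*, and between no other neighbours in that order. In KO the order changed. *Jup* was highest (9.68 ± 0.286 CPM per kb, SD, n = 3), followed by *Pkp1* (3.48 ± 0.469), *Pkp3* (1.66 ± 0.0937), *Dsp* (1.52 ± 0.0479), *Dsg1a* (1.33 ± 0.154) and *Dsc3* (0.816 ± 0.0274). The last places were taken by *Dsc2* (0.352 ± 0.0181), *Dsg3* (0.341 ± 0.0614), *Dsg2* (0.244 ± 0.0436) and *Dsc1* (0.193 ± 0.0652), whose neighbours in the order all overlapped. *Dsc1* thus moved from the middle of the order in WT to the end of it in KO.

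The cadherins of the desmosome lie side by side in 1 cluster of 644 kb on chromosome 18, which holds 9 coding genes, 3 desmocollins and 6 desmogleins, 3 of these being members of the list and 3 being *Dsg1b*, *Dsg1c* and *Dsg4*. Of the 8 genes of the cluster that were tested, 7 were called lower. Along the cluster the falls did not follow gene order. *Dsc3*, *Dsc2* and *Dsc1* are direct neighbours and had log2 fold changes of -3.94, -1.08 and -6.70, so the smallest and the largest fall among the members came from adjacent genes.

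**Figure D2:**
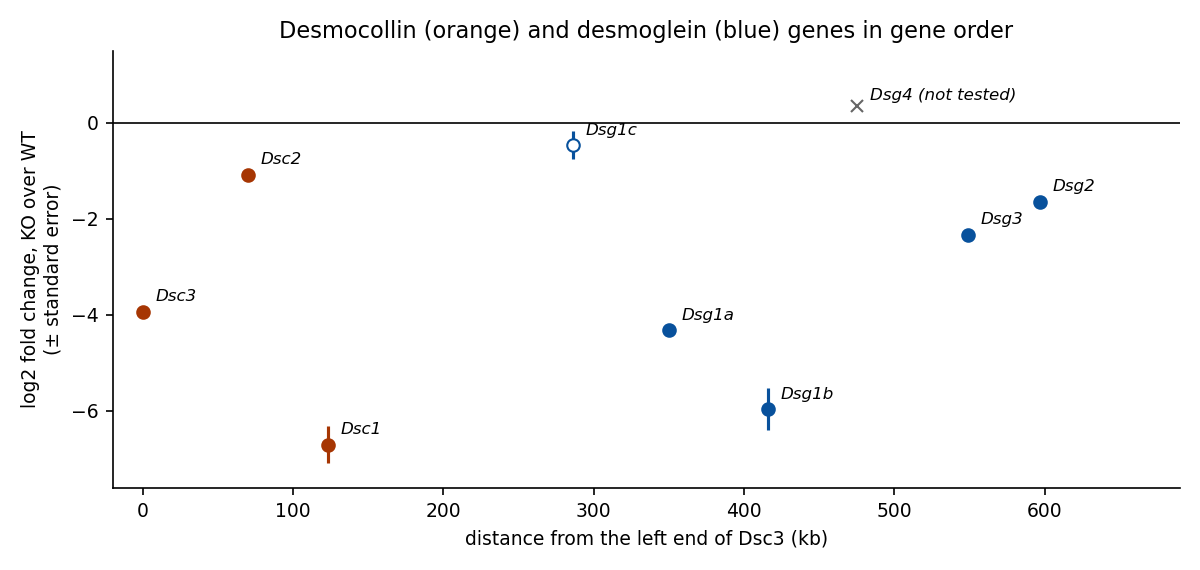
Log2 fold change of KO over WT with its standard error (vertical) for the desmocollin (orange) and desmoglein (blue) genes, by distance in kb from the left end of *Dsc3* (horizontal). Filled points were called lower, the open point (*Dsg1c*) was not called, and the cross marks only the place of *Dsg4*, which was not tested and has no value. *Dsc1* (-6.70) and *Dsg1b* (-5.96) lie lowest.

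Among the desmogleins, *Dsg1a* (ENSMUSG00000069441.3, chromosome 18, 20310811 to 20343350, plus strand) encodes the desmoglein of the upper epidermis. It had 136, 179.8 and 134 CPM in WT and 6.53, 8.01 and 8.09 CPM in KO, a 19.9-fold fall (log2 fold change -4.31, standard error 0.123, edgeR adjusted p = 4.15e-08). Its close copy *Dsg1b* had 944, 1849 and 1576 counts in WT and 17, 31 and 24 counts in KO (log2 fold change -5.96, standard error 0.432, edgeR adjusted p = 1.36e-06), and *Dsg1c* had 16, 13 and 26 counts in WT and 12, 15 and 13 counts in KO (log2 fold change -0.47, standard error 0.288, edgeR adjusted p = 0.218). The annotated transcripts of *Dsg1a* share 18.1% of their windows of 150 bases with *Dsg1b* or *Dsg1c*, so how reads were split among these copies is uncertain. *Dsg4*, the desmoglein of hair and the uppermost layers, had 3, 4 and 1 counts in WT and 6, 5 and 7 counts in KO and was not tested.

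*Dsg3* (ENSMUSG00000056632.8, chromosome 18, 20510274 to 20547459, plus strand), the desmoglein of basal cells, had 11.9, 13.4 and 10.7 CPM in WT and 2.83, 1.97 and 2.34 CPM in KO. Its fall of 5.04-fold (log2 fold change -2.33, standard error 0.129, edgeR adjusted p = 8.78e-07) was smaller than that of *Dsg1a*. *Dsg2* (ENSMUSG00000044393.15, chromosome 18, 20558074 to 20604521, plus strand), the most widespread desmoglein, had 6.01, 6.56 and 6.35 CPM in WT and 2.43, 1.86 and 1.77 CPM in KO, a 3.12-fold fall (log2 fold change -1.64, standard error 0.118, edgeR adjusted p = 4.32e-06). WT samples of *Dsg2* differed little, in contrast to those of *Dsg1a*.

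Among the desmocollins, *Dsc1* (ENSMUSG00000044322.7, chromosome 18, 20084184 to 20114871, minus strand) belongs to the upper epidermis and fell furthest of the members. It had 6290, 11987 and 9867 counts in WT and 56, 107 and 117 counts in KO, that is 66.4, 145 and 93.5 CPM in WT and 0.597, 1.12 and 1.20 CPM in KO. WT replicate 2 was highest and KO replicate 1 lowest, and the groups lay far apart. The fall was 104-fold (log2 fold change -6.70, standard error 0.39, edgeR adjusted p = 5.55e-07). It was the 20th lowest log2 fold change of the 22071 genes tested. *Dsc3* (ENSMUSG00000059898.9, chromosome 18, 19960930 to 20002351, minus strand), the desmocollin of basal cells, had 62.9, 77.8 and 61.8 CPM in WT and 4.43, 4.25 and 4.54 CPM in KO, a 15.3-fold fall (log2 fold change -3.94, standard error 0.092, edgeR adjusted p = 1.69e-08). *Dsc2* (ENSMUSG00000024331.11, chromosome 18, 20030633 to 20059554, minus strand), the form of simple epithelia and heart, had 3.90, 4.22 and 3.64 CPM in WT and 1.94, 1.75 and 1.87 CPM in KO, a 2.11-fold fall (log2 fold change -1.08, standard error 0.0939, edgeR adjusted p = 1.54e-05), the smallest of the members.

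The makeup of the desmosomal cadherins was compared as the share of each gene in the summed CPM per kb of the 6 cadherin members. *Dsc1* made up 25.3%, 36.7% and 32.7% in WT and 3.76%, 6.83% and 7.00% in KO. *Dsg1a* held its place, with 46.2%, 40.4% and 41.8% in WT and 36.4%, 43.2% and 41.8% in KO, values that overlap. *Dsc2* made up 1.42%, 1.02% and 1.22% in WT and 11.7%, 10.2% and 10.4% in KO, and *Dsg2* 1.40%, 1.01% and 1.36% in WT and 9.33%, 6.90% and 6.28% in KO. *Dsg3* made up 3.29%, 2.45% and 2.72% in WT and 12.8%, 8.68% and 9.86% in KO, so the basal and the widespread forms took a larger share in KO. *Dsc3* made up 22.4%, 18.4% and 20.2% in WT and 26.0%, 24.2% and 24.7% in KO. Desmocollins together stood at 0.967, 1.28 and 1.18 times the 3 desmogleins in WT and at 0.707, 0.700 and 0.727 times in KO.

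**Figure D3:**
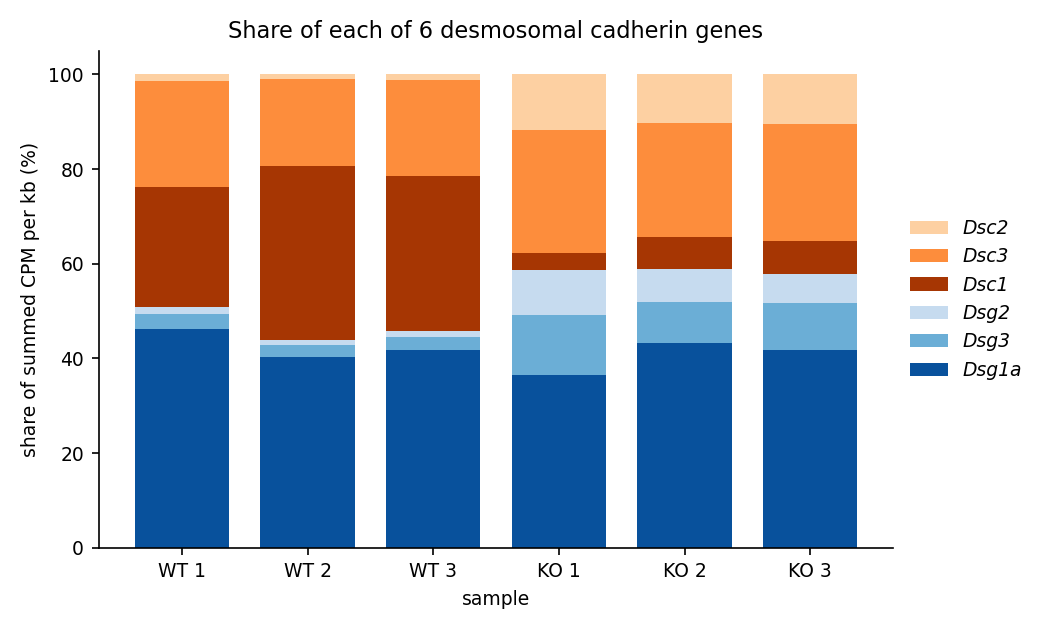
Share (%) of each of the 6 desmosomal cadherin members in their summed CPM per kb of exon, 1 bar per sample. *Dsc1* shrinks from 31.6% in WT to 5.86% in KO (means), while *Dsg1a* takes 42.8% and 40.5%.

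Whether partners fell by unequal amounts was tested on 6 log2 ratios of counts within each sample, which need no scaling between libraries. For *Jup* to *Dsp* the ratio was -0.86, -0.83 and -0.81 in WT and 2.04, 2.13 and 2.08 in KO, a rise of 7.54-fold. For *Dsc2* to *Dsc3* it was -4.01, -4.20 and -4.08 in WT and -1.19, -1.28 and -1.28 in KO, a rise of 7.22-fold. *Jup* and *Dsc2* were thus the less reduced partners, in all 3 KO samples. For *Dsc1* to *Dsc3*, upper against basal desmocollin, it was 0.08, 0.90 and 0.60 in WT and -2.88, -1.92 and -1.91 in KO, a drop of 6.78-fold. The matching desmoglein ratio, *Dsg1a* to *Dsg3*, dropped 3.91-fold, that of *Pkp1* to *Pkp3* dropped 2.48-fold, and that of *Dsg2* to *Dsg3* rose 1.61-fold. In each of the 6 ratios the WT and KO samples did not overlap (two-sided exact permutation test, p = 0.1 for each and 0.1 after adjustment over the 6 ratios, and groups of 3 cannot give a lower p). How often ratios between other genes separate in this way was not computed. Each ratio restates the unequal falls of its own genes given above. In both pairs of an upper and a basal cadherin, the upper form was the one that fell further, by more than the spread between replicates.

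Keratins are the filaments that desmosomes hold, so each member was also set beside them within each sample. *Krt5* and *Krt14* form the filaments of basal cells, and *Krt1* and *Krt10* those of the layers above. *Krt5* stood at 1001 ± 93.6 CPM in WT samples against 257 ± 39.3 CPM in KO samples and *Krt14* at 434 ± 23.1 CPM in WT samples against 72.2 ± 6.81 CPM in KO samples (mean ± SD, n = 3 per group), falls of 3.89-fold and 6.01-fold. *Krt1* stood at 9575 ± 1963 CPM in WT samples against 215 ± 56.1 CPM in KO samples and *Krt10* at 5837 ± 1582 CPM in WT samples against 79.3 ± 23.9 CPM in KO samples, falls of 44.4-fold and 73.6-fold.

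Per count of *Krt5* and *Krt14* together, 6 of the 10 members were lower in KO with no overlap between the groups. The drop of this ratio was 23.6-fold for *Dsc1*, 7.41-fold for *Dsp*, 5.62-fold for *Pkp1*, 4.53-fold for *Dsg1a*, 3.48-fold for *Dsc3* and 2.27-fold for *Pkp3*. *Jup* overlapped, with log2 ratios of -2.65, -2.18 and -2.42 in WT and -2.66, -2.33 and -2.19 in KO, and so did *Dsg3*, with -6.83, -6.87 and -7.01 in WT and -7.07, -7.31 and -6.97 in KO. *Dsc2* and *Dsg2* were higher in KO per count of *Krt5* and *Krt14*, by 2.07-fold and 1.39-fold. *Krt15*, another basal keratin, fell 10.9-fold and was not part of this denominator. The exact permutation test gave p = 0.1 for each of these 8 ratios without overlap (0.125 adjusted over the 10 members), p = 0.2 for *Dsg3* and p = 1 for *Jup*. As *Krt5* and *Krt14* fell 3.89-fold and 6.01-fold, a gene that fell clearly more drops with this denominator and one that fell clearly less rises. The split of the members is therefore no result about them in particular.

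Per count of *Krt1* and *Krt10* together the picture turned round. With this denominator 9 of the 10 members were higher in KO, from 1.63-fold for *Dsp* and 2.15-fold for *Pkp1* to 25.1-fold for *Dsc2*, and *Dsc1* alone was lower, by 1.95-fold (exact permutation test, p = 0.1 for each and 0.1 adjusted). *Krt1* and *Krt10* fell 44.4-fold and 73.6-fold, so any gene that fell clearly less rises with this denominator. The count of 9 is therefore no result about the members in particular. Shares over all genes tested were not computed for either denominator.

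**Figure D4:**
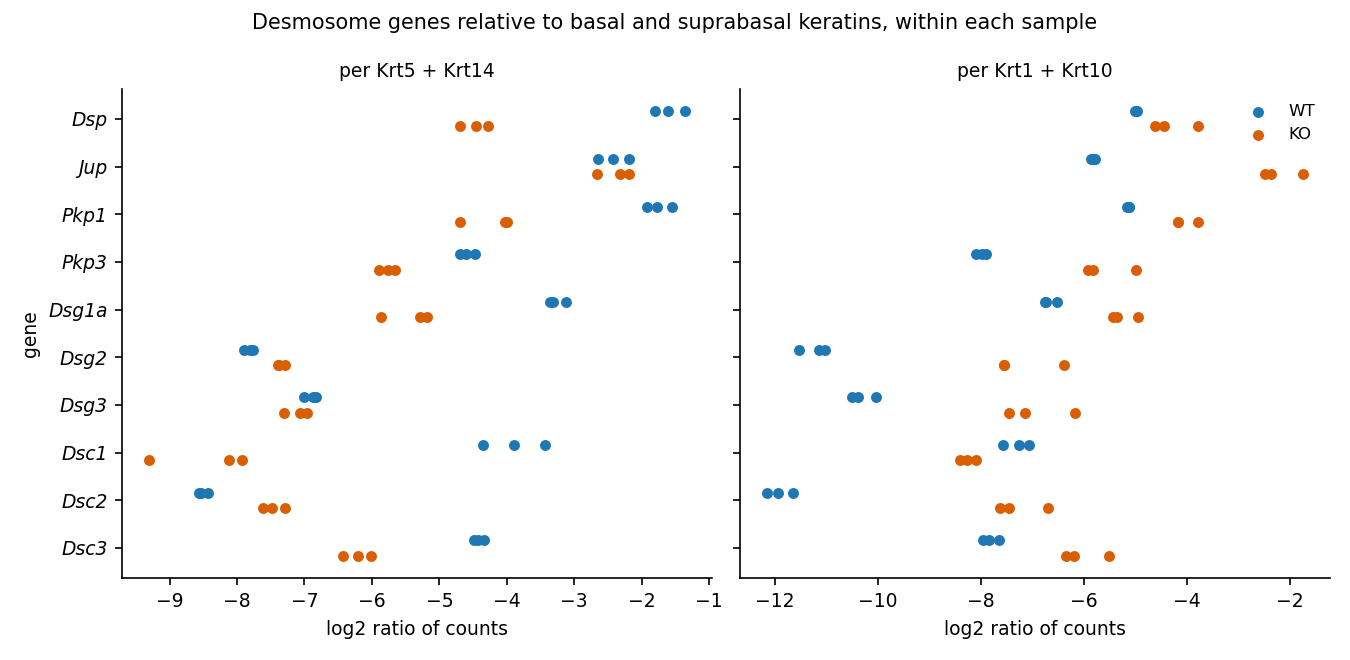
Log2 ratio of counts of each desmosome gene to *Krt5* plus *Krt14* (left) and to *Krt1* plus *Krt10* (right) within each WT (blue) and KO (orange) sample. Relative to *Krt5* plus *Krt14*, *Dsc1*, *Dsp*, *Pkp1*, *Dsg1a*, *Dsc3* and *Pkp3* lie lower in KO. Relative to *Krt1* plus *Krt10*, all members except *Dsc1* lie higher.

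Other genes of the same junction moved in part with the members. Of 9 further desmosome genes, 8 were tested and 5 were called lower, with a median log2 fold change of -3.06 over the 8. *Pkp2*, *Pkp4* and *Dsg1c* were not called, as described above. *Perp*, which encodes a membrane protein that desmosomes need for stability in stratified epithelia, had 541, 692 and 542 CPM in WT and 25.7, 29.5 and 29.1 CPM in KO (log2 fold change -4.40, standard error 0.0988, edgeR adjusted p = 2.00e-08). The plakins of the outer epidermis fell too. *Evpl*, for envoplakin, had 99.6, 152 and 113 CPM in WT and 13.4, 12.6 and 12.3 CPM in KO (log2 fold change -3.25), and *Ppl*, for periplakin, had 203, 344 and 246 CPM in WT and 39.0, 34.4 and 34.5 CPM in KO (log2 fold change -2.88). *Cdsn*, for corneodesmosin, the glue of the cornified layer, had 115, 194 and 142 CPM in WT and 10.2, 14.0 and 14.1 CPM in KO (log2 fold change -3.56). The remaining one was *Dsg1b*.

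Of the 10 keratin genes examined, 8 were called lower, with a median log2 fold change of -3.02. *Krt77* had 353, 665 and 444 CPM in WT and 0.203, 0.577 and 0.421 CPM in KO, and *Krt2* had 64, 98 and 94 counts in WT and 0, 0 and 0 counts in KO, at least 29.2-fold lower against a floor of 3 counts per library, a bound that leaves the median of the list at -3.02. *Krt15*, a basal keratin, had a log2 fold change of -3.45, and *Krt19* one of -1.54. *Krt8* and *Krt18*, the pair of simple epithelia, were not called, with log2 fold changes of -0.22 and -0.32 and overlapping values.

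Adherens junctions, which use classical cadherins and catenins and link to actin, changed in part. Of 14 genes, 4 were called lower, with a median log2 fold change of -0.27. These 4 were *Nectin4* (-4.39), *Cdh1* for E-cadherin (-3.56), *Cdh3* for P-cadherin (-1.23) and *Nectin1* (-1.07). *Cdh1* had 66.6, 95.4 and 71.5 CPM in WT and 7.38, 5.76 and 6.71 CPM in KO. *Ctnnb1*, for β-catenin, the close relative of plakoglobin, stood at 436 ± 16.2 CPM in WT samples against 372 ± 9.04 CPM in KO samples (mean ± SD, n = 3 per group, log2 fold change -0.23), and *Ctnnd1*, for p120-catenin, at 64.7 ± 5.02 CPM in WT samples against 52.0 ± 1.59 CPM in KO samples (log2 fold change -0.31), both under the 1.5-fold threshold. The cadherins of muscle and nerve, *Cdh15* (-0.10) and *Cdh2* (-0.41), were not called.

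Hemidesmosomes fasten basal cells to the basement membrane rather than to each other. Of 6 genes, 1 was called lower, *Col17a1* for collagen XVII, with 81.6, 107 and 90.9 CPM in WT and 28.3, 28.5 and 28.7 CPM in KO (log2 fold change -1.71, standard error 0.0841, edgeR adjusted p = 4.44e-07), and the median log2 fold change of the 6 was 0.15. *Itgb4*, for integrin β4, had 29.1, 37.5 and 33.2 CPM in WT and 23.1, 22.8 and 22.5 CPM in KO. Its log2 fold change of -0.54 was just under the 1.5-fold threshold, and it was called with library size as the only scaling and without WT replicate 1. *Plec* (0.30) and *Dst* (0.22), which encode plakins related to desmoplakin and are also expressed in muscle, were not called.

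**Figure D5:**
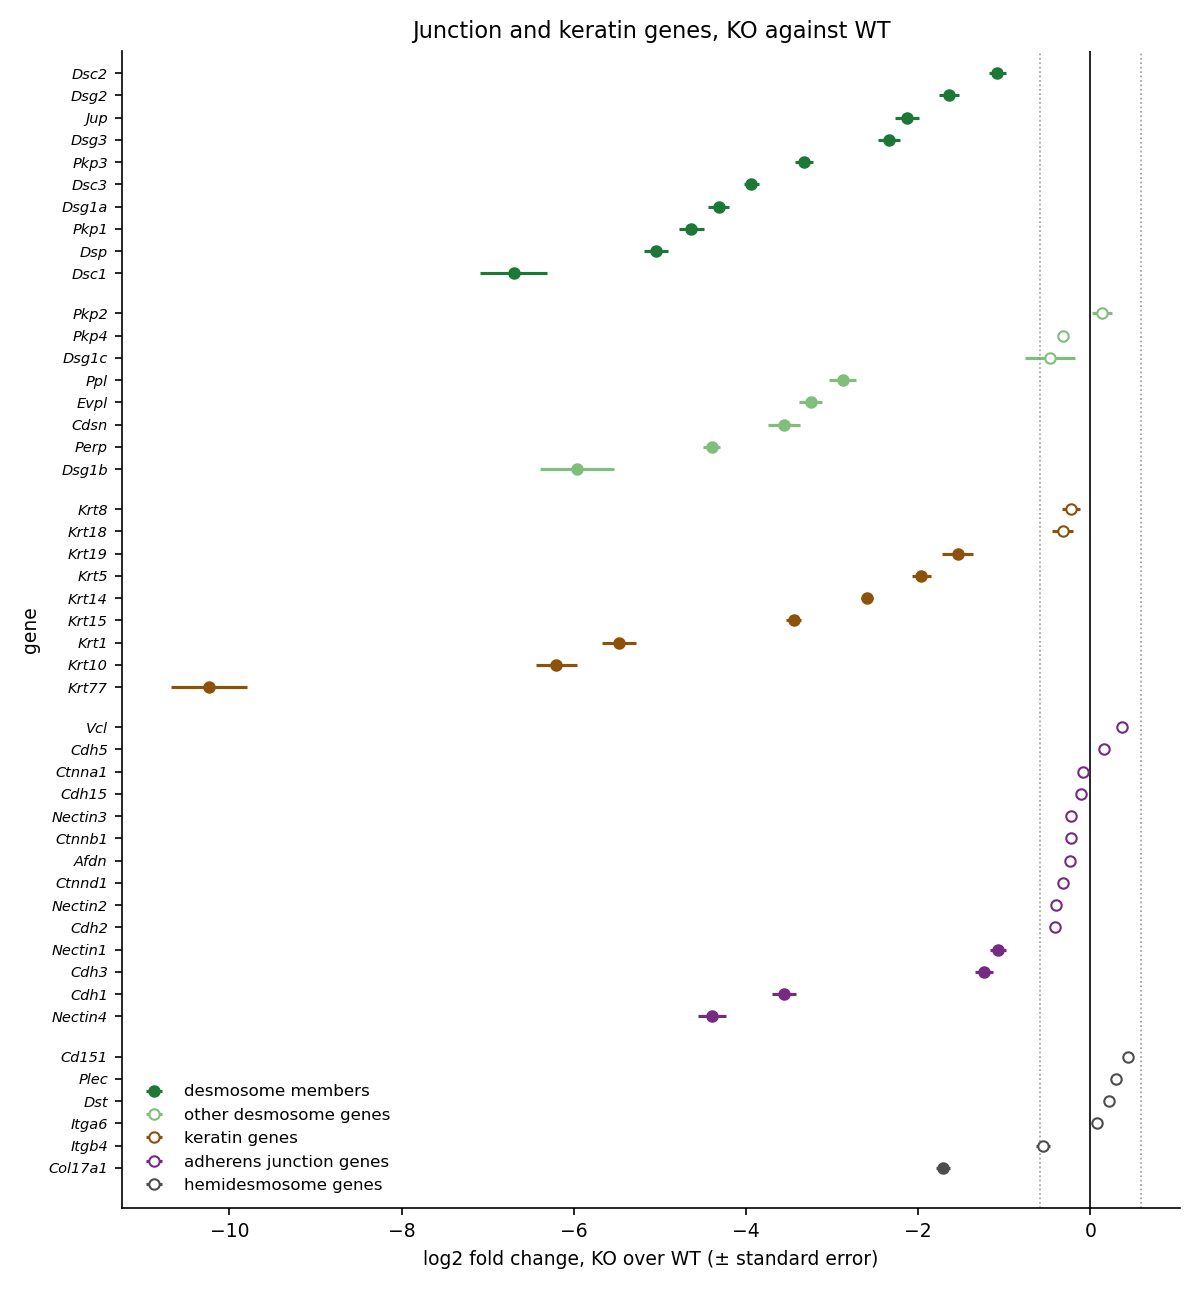
Log2 fold change of KO over WT with its standard error for the tested genes of the 5 lists, without *Krt2*, whose KO counts were 0. Filled points were called and open points were not, and dotted lines mark a fold change of 1.5. All 10 desmosome members were called lower, as were 5 of 8 tested other desmosome genes and 8 of 10 keratin genes, *Krt2* included. Of adherens junction genes 4 of 14 were called lower, of hemidesmosome genes 1 of 6, and of all genes tested 8.39%.

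Genes whose pattern over the 6 samples was most like that of *Dsp* included *Gjb2*, *Tgm3*, *Cldn4* and *Aox4*. The ranking drew on 12371 genes with a mean of at least 5 CPM, less the members and genes without a symbol. Likeness was measured by the root-mean-square difference of centred log2 CPM, which was 0.0751 for *Gjb2* and 0.0923 for *Aox4*. The same measure was taken for all members, *Dsc2* and *Dsg2* included, whose means lie under 5 CPM. *Pkp1* (0.236) and *Dsg1a* (0.379) were nearest to *Dsp* and *Dsc2* (1.98) farthest. *Gjb2*, a connexin gene of gap junctions, averaged 97.2 CPM over the WT samples and 3.15 CPM over the KO samples, and *Cldn4*, a claudin gene of tight junctions, averaged 19.6 CPM and 0.611 CPM.

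WT replicate 2 was the highest WT sample for all 10 members, where 38.4% of the genes tested were highest in it, and it was also highest for the summed keratinocyte markers. Without it the 10 members were still all called lower, with log2 fold changes of -4.84 for *Dsp*, -1.93 for *Jup*, -6.35 for *Dsc1* and -1.02 for *Dsc2*. Among KO samples, replicate 1 was lowest for *Dsc1*, *Dsg1a*, *Pkp1* and *Jup* and highest for *Dsg2*, *Dsg3*, *Dsc2* and *Pkp3*, and it was lowest for *Krt1* and *Krt10* and highest for *Krt5* and *Krt14*. It was neither for *Dsp* and *Dsc3*.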

How the data were processed

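RNA-seq counts of 3 WT and 3 KO leg muscle samples were used. Per the study's methods and the submitters' processing notes, the authors trimmed paired-end reads with Trim Galore 0.6.6, mapped them to mm10 with HISAT2 2.2.1 and counted them per gene with featureCounts 2.0.1. What the authors deposited are raw counts for each gene, without normalization. The annotation, the strand setting and the treatment of reads shared between genes are not given in the sources used here.

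Gene IDs were matched without version to GENCODE M21 (55227 of 56262 matched). In R 4.3.3, edgeR 4.0.16 (filterByExpr, TMM, quasi-likelihood F-test on genotype) tested 22071 genes, with Benjamini-Hochberg adjustment over all of them. Standard errors come from the fitted means and dispersions of that model. The thresholds for a call were 0.05 for adjusted p and 1.5 for fold change. P-values measure only the spread between these samples. CPM per kb uses the union of annotated exons. Ratios within samples used a prior of 0.5 counts and a two-sided exact permutation test. DESeq2 (version 1.42.0 here; the study used DESeq2 too, in another version) and limma 3.58.1 (voom) were alternatives, beside other scalings, filters, thresholds, a replicate block and leaving out each sample. Tests were checked on simulated data. The labels give WT and KO the same replicate numbers, but samples sharing a number did not deviate together (correlations of their deviations of -0.20, -0.13 and 0.047) and were not paired.

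The members and lists were chosen with earlier results of these data known. Named are all 10 members, the called genes of the 4 other lists with some that were not called and whose proteins bind members, the most counted or defining markers, and the 5 genes most like *Dsp*, of which 1 is left out here. *Dsg1c*, *Dsg4*, *Krt8*, *Krt18*, *Itgb4*, *Plec*, *Dst*, *Cdh2*, *Cdh15*, *Myl7*, *Myh6*, *Wt1* and *Lrrn4* were added to this after their values were seen.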

Additional observations from a re-analysis of the deposited data

How the results depend on the processing

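All 10 desmosome genes were called lower under each of the 16 alternatives to the test across genes, which included RLE factors, upper-quartile factors, library size, DESeq2, limma-voom, no filter, at least 10 counts in every sample, the replicate block (10 called), a fold change over 2 and leaving out each sample (10 called throughout). The replicate block changed no call of a gene in the 5 lists. Of the other desmosome genes 5 or 6 were called, and of the keratins 7 or 8. Without a fold-change threshold, 12 adherens junction genes (10 lower, 2 higher) and 5 hemidesmosome genes (2 lower, 3 higher) were called. At that setting 5098 of the 22071 genes tested were called lower and 4838 higher, so such calls were common among all genes. Hemidesmosome genes called were 2 with library size only and 1 to 2 when a sample was left out. All 6 ratios between members kept their sign and their separation under the 8 alternatives tried for them. Changing the denominator from *Krt5* and *Krt14* to *Krt1* and *Krt10* turned the sign of the difference in log2 ratio for *Dsp* (0.71), *Pkp1* (1.10), *Pkp3* (2.41), *Dsg1a* (1.42), *Dsg3* (3.38) and *Dsc3* (1.80), as follows from the larger fall of the second pair. The *Jup* ratio to *Krt5* and *Krt14* was near 0 and changed sign without WT replicate 1 (-0.091), KO replicate 2 (-0.0061) or KO replicate 3 (-0.074), with a range of -0.091 to 0.16 when a sample was left out. With 3 samples a group the permutation tests could not pass 0.05, and low KO counts of *Dsc1* and *Dsg1b* limit their precision.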
